A study of Mus musculus with 10 samples.

Results

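The genes studied here are 8 markers used to recognise neural and glioma stem cells, *Nes*, *Vim*, *Prom1*, *Cd44*, *Msi1*, *Msi2*, *L1cam* and *Fut4*. They were taken by gene symbol from a matrix of 23230 features measured by RNA sequencing in 10 mouse libraries, and all 8 had a row. Their values are FPKM, fragments scaled to transcript length and to the size of the library, so levels can be set beside each other between genes.

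All 10 libraries came, by their labels, from cells with a knockout of Ink4a/Arf (p16/p19) that carry EGFRvIII, a truncated and constitutively active human EGF receptor delivered by a retroviral vector. AstroEGFR (3 libraries) were cortical astrocytes taken at postnatal day 5 from C57BL/6 mice and grown in serum. PT (4 libraries) were glioma propagating cells grown from tumours that such astrocytes formed in the brain of CD1 Nude mice, kept without serum on laminin with EGF and FGF-2. AstroEGFR_Zfp423 (3 libraries) were AstroEGFR infected with a vector for *Zfp423*, which encodes a zinc finger protein. Cultures were used before passage 10. AstroEGFR_1, PT1, PT4 and AstroEGFR_1_Zfp423 were taken as 1 astrocyte batch, the libraries numbered 2 as the second and those numbered 3 as the third. PT1 to PT3 were matched by number, and the labels do not give the batch of PT4. Passage through a tumour and the change of medium cannot be told apart, and host and grafted cells are both from mouse.

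Stem cell markers of glioma fall into classes. Nestin and vimentin are intermediate filament proteins of neural progenitors and reactive astrocytes. Prominin-1 (CD133) is a membrane glycoprotein of cell protrusions, CD44 is the receptor of hyaluronan, and L1CAM is an adhesion molecule of axons and some tumour cells. FUT4 is a fucosyltransferase that can make the LewisX epitope (SSEA-1, CD15), and Musashi-1 and Musashi-2 are RNA-binding proteins of neural progenitors. Most of these proteins are also made by cells that are not stem cells, and a transcript level does not report the surface epitopes by which such cells are sorted.

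Some libraries stood apart before any marker was compared. *Zfp423* was at 15.7, 9.73 and 105.1 FPKM in the AstroEGFR_Zfp423 libraries, 3.25 to 4.30 in AstroEGFR and 0.641 to 2.78 in PT. *Cdkn2a*, the gene of the Ink4a/Arf locus, was listed above 0 in all 10 libraries, at 3.96 to 29.1 FPKM in AstroEGFR, 7.34 to 129.7 in PT and 4.10 to 6.29 in AstroEGFR_Zfp423. These values do not say which of its exons were read, so they neither show the labelled knockout nor its absence. *Egfr* was at 7.81 to 362.4 FPKM in AstroEGFR, 18.9 to 133.8 in PT and 82.2 to 343.1 in AstroEGFR_Zfp423, and the mouse row does not say how much of it comes from the human vector. Marker lists of 8 genes each for microglia and for astrocytes were summed in each library. The microglial sum was 893.8 FPKM in AstroEGFR_1_Zfp423 and 480.2 in AstroEGFR_2_Zfp423, with all 8 genes above 1 FPKM in both, against 1.23 in AstroEGFR_3_Zfp423, 2.52 to 12.1 in AstroEGFR and 1.23 to 36.6 in PT, where *Cd68* alone made 36.5 of the 36.6 in PT2. The astrocyte sum was 57.2 FPKM in AstroEGFR_2_Zfp423, where *Gfap* was at 1.11 and *Olig2* was listed at 0, against 186 to 1032 in the other 9 libraries. *Gjb6*, the astrocytic connexin 30 gene, was listed at 0 in all 10. The sum of 9 fibroblast genes was 449.2 to 5248 FPKM in AstroEGFR, 10.1 to 435.5 in PT and 267 to 6323 in AstroEGFR_Zfp423. Small non-coding RNA and histone features took 0.844, 29.7 and 4.88% of the summed FPKM in AstroEGFR_1 to AstroEGFR_3, 0.801 to 34.4% in PT, and 35.8, 36.1 and 54.8% in AstroEGFR_Zfp423, and between 14075 and 17030 features were above 0. In bulk libraries, fewer cells of a type and less RNA per cell cannot be told apart.

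The 8 genes spanned the whole range of expression. In AstroEGFR and in PT the mean levels fell in 1 order, *Vim*, *Nes*, *Cd44*, *Msi2*, *Msi1*, *Prom1*, *Fut4* and *L1cam*. *Vim* lay above all the others in every library. In AstroEGFR the ranges of *Nes* and *Cd44*, *Cd44* and *Msi2*, *Msi1* and *Prom1*, and *Fut4* and *L1cam* overlapped, so those neighbours did not differ beyond their spread. In PT the overlapping neighbours were *Cd44* with *Msi2* and *Fut4* with *L1cam*. In AstroEGFR_Zfp423 the mean of *Cd44* was above that of *Nes*, with overlapping ranges, and that of *L1cam* above that of *Prom1* through 1 library.

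**Figure D1:**
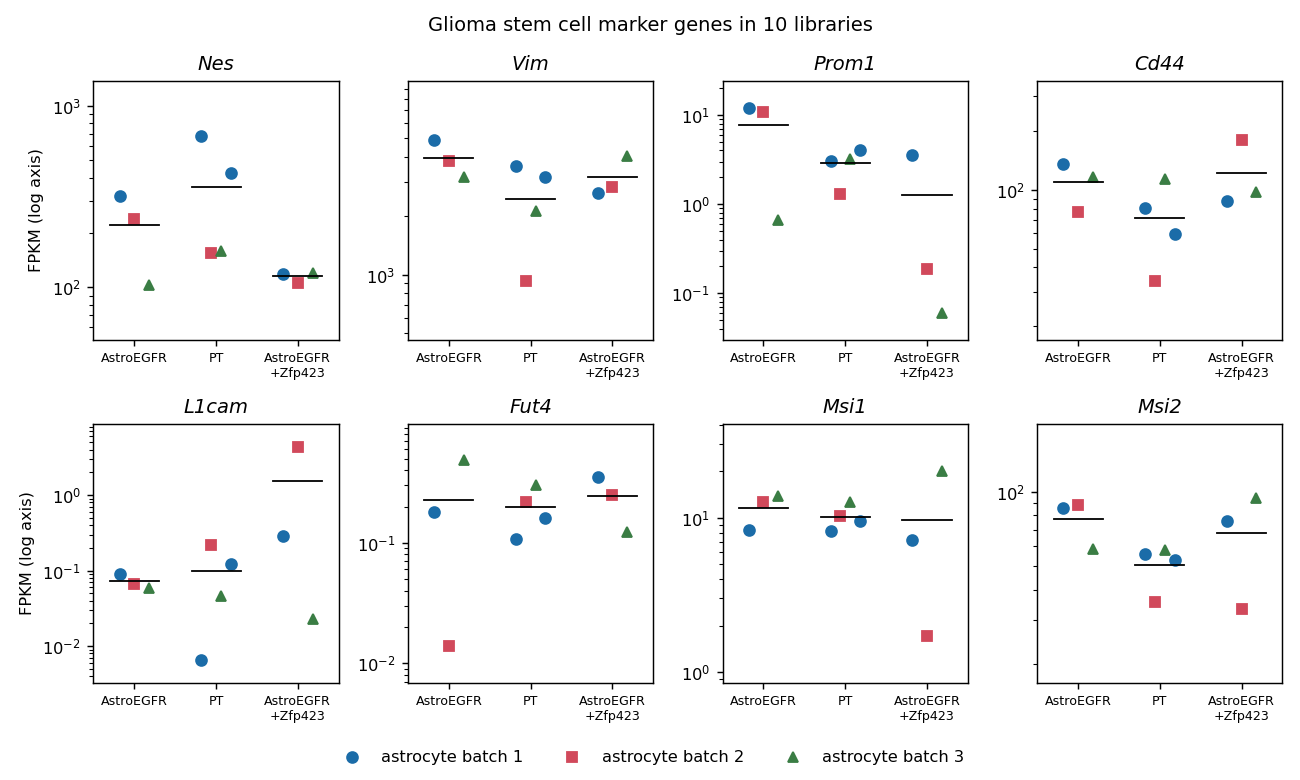
FPKM of the 8 genes (log axis, a separate scale in each panel) in AstroEGFR, PT and AstroEGFR_Zfp423. Each point is 1 library, its colour and shape give the astrocyte batch, and the bar is the group mean. *Msi2* in PT lies below every AstroEGFR value, by a narrow margin, and *Nes* in PT lies above every AstroEGFR_Zfp423 value.

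Promoter sequences are shown for *Vim*, the most abundant of the genes, and for *Nes* and *Prom1*, whose levels in PT and AstroEGFR_Zfp423 are compared later. They are the 250 bases before the RefSeq start in GRCm38.p6, which is not the mm9 build of the expression values. Windows were found for 7 of the 8 genes. Capitals mark matches to the TATA box (TATAAA), the CCAAT box (CCAAT), the GC box (GGGCGG), the AP-1 consensus (TGACTCA) and the core of the ZFP423 consensus (GCACCC). Both strands were searched, and a CCAAT box on the other strand reads ATTGG and a GC box there reads CCGCCC. No matches overlap.
Vim, chr2:13574061-13574310, plus strand: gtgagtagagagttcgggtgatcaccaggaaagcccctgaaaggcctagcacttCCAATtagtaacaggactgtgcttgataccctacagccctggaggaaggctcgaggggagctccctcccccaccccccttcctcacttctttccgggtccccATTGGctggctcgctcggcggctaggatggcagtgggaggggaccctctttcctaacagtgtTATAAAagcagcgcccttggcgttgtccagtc
Nes, chr3:87970843-87971092, plus strand: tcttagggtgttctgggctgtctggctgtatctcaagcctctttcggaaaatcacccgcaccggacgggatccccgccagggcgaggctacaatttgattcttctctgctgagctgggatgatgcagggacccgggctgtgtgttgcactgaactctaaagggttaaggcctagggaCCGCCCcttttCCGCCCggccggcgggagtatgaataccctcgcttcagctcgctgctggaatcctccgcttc
Prom1, chr5:44101737-44101986, minus strand: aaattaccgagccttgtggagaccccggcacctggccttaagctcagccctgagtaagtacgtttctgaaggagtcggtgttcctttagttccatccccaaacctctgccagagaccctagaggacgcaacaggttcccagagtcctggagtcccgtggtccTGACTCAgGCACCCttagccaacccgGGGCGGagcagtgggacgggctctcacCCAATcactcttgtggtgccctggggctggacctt

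The *Vim* window held TATAAA, which starts 32 bases before the transcription start, and 2 CCAAT boxes. The *Nes* window held 2 GC boxes and no TATA box. The *Prom1* window held the AP-1 and ZFP423 motifs, a GC box and a CCAAT box, and that of its other annotated start held none of the 5 motifs. Among 32851 windows of the same length, 12.4% held the TATA box, 33.8% the CCAAT box, 32.7% the GC box, 4.46% the AP-1 motif and 13.3% the ZFP423 motif. A match describes the sequence and does not show that a factor binds it.

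Of the filament genes, *Vim* was among the most abundant transcripts of these cells. It stood at 4931, 3814 and 3187 FPKM in AstroEGFR_1 to AstroEGFR_3, where it ranked 1, 10 and 4 of 23230 features. In PT1 to PT4 it stood at 3602, 927.8, 2111 and 3180 FPKM, and in the AstroEGFR_Zfp423 libraries at 2624, 2833 and 4055. PT2 was the lowest of the 10 libraries and ranked 60, and the groups overlapped. *Nes* stood at 318.1, 237.5 and 103.0 FPKM in AstroEGFR and at 681.9, 153.6, 158.5 and 422.6 in PT1 to PT4. Both PT libraries of batch 1 were above all AstroEGFR libraries, and PT2 and PT3 lay inside the AstroEGFR range. The summed FPKM of 7 oligodendrocyte lineage genes was 1356 in PT1 and 1648 in PT4, against 144.6 in PT2, 130.5 in PT3 and 28.2 to 222.0 in the other 6 libraries, and its part in the level of *Nes* was not tested. In AstroEGFR_Zfp423 *Nes* was at 118.4, 105.8 and 120.4 FPKM, the narrowest spread of any of the 8 genes in any group, with the highest library 1.14 times the lowest.

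Among the surface markers *Cd44* was abundant in all libraries, *Prom1* was low to moderate and *L1cam* was mostly under 1 FPKM. *Prom1* was at 12.0, 10.7 and 0.661 FPKM in AstroEGFR_1 to AstroEGFR_3, a range of 18.1 times within 1 group. It was at 3.08, 1.302, 3.22 and 4.03 FPKM in PT and at 3.56, 0.188 and 0.0606 in AstroEGFR_Zfp423. All PT libraries thus lay between AstroEGFR_3 and the other AstroEGFR libraries. *Cd44* was at 136.1, 77.2 and 116.1 FPKM in AstroEGFR and at 80.9, 34.2, 113.6 and 59.2 in PT. In AstroEGFR_Zfp423 it was at 87.2, 179.9 and 97.8 FPKM, and the highest of all 10 values was in AstroEGFR_2_Zfp423, one of the libraries with microglial transcripts. AstroEGFR_1_Zfp423, with the larger microglial sum, had the lowest *Cd44* of its group and lay below AstroEGFR_1. *L1cam* was at 0.0596 to 0.0899 FPKM in AstroEGFR and 0.00653 to 0.220 in PT. In AstroEGFR_Zfp423 it was at 0.288, 4.36 and 0.0229 FPKM, so AstroEGFR_2_Zfp423 was the 1 library of 10 above 1 FPKM.

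The Musashi genes differed in level in every library, *Msi2* being the higher. *Msi2* was at 86.1, 88.5 and 58.3 FPKM in AstroEGFR and at 55.9, 35.8, 57.7 and 52.7 in PT. These ranges did not overlap, with a gap between 58.3 in AstroEGFR_3 and 57.7 in PT3. In AstroEGFR_Zfp423 *Msi2* was at 75.6, 33.5 and 93.9 FPKM. *Msi1* was at 8.35, 12.5 and 13.9 FPKM in AstroEGFR and, within that range but for the lowest library, at 8.23, 10.3, 12.6 and 9.52 in PT. It was at 7.13, 1.71 and 20.1 FPKM in AstroEGFR_Zfp423, which held both the lowest and the highest value of the 10 libraries. *Msi1* and *Msi2* were both lowest in AstroEGFR_2_Zfp423, the library with the lowest astrocyte sum. *Fut4* was low throughout, at 0.0138 to 0.482 FPKM in AstroEGFR, 0.108 to 0.302 in PT and 0.123 to 0.354 in AstroEGFR_Zfp423, and all 3 ranges overlapped.

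PT and AstroEGFR were compared to ask which markers differ between tumour-derived cells and the astrocytes they came from. No marker passed the test. On the log2(FPKM + 1) scale, 5 of the 6 tested genes had a lower mean in PT and *Nes* a higher one, and none was called by limma with Benjamini-Hochberg adjustment at 0.05, where 1.24% of 12261 features were. None of the 6 had an unadjusted p under 0.05. *L1cam* and *Fut4*, with a mean under 1 FPKM, were not tested. The median of the 6 fold changes was -0.65, against 0.03 over all features tested. With the astrocyte batch as a block, 475 features were called in place of 152 (3.87%), and again none of the 6.

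*Msi2* was the 1 gene of the 6 whose groups did not overlap, and 7.81% of all tested features were lower in PT with no overlap. Its fold change was -0.61 ± 0.27 (log2, SE, n = 4 and 3), with an adjusted p of 0.388 by limma and an interval from -1.24 to 0.024. *Vim* had a fold change of -0.85 ± 0.61 and an adjusted p of 0.618 by limma, and *Cd44* one of -0.69 ± 0.43 and an adjusted p of 0.547. Without PT2 they were -0.44 and -0.38. *Prom1* had a fold change of -0.75 ± 0.73 with an adjusted p of 0.727 by limma, and it moved to -1.72 without AstroEGFR_3 and to -0.23 without AstroEGFR_1. *Nes* had a fold change of 0.54 ± 0.65 with an adjusted p of 0.786 by limma, and its interval ran from -0.96 to 2.04. Without AstroEGFR_3 it was 0.075, and over all single libraries left out it reached at most 0.88. The interval of *Msi1* ran from -0.77 to 0.45 around -0.16 ± 0.26, and the value lay between -0.36 and -0.025 without single libraries. In this fit, which leaves out the batch, the intervals of all 6 genes span 0, and the missed threshold does not show equal levels.

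**Figure D2:**
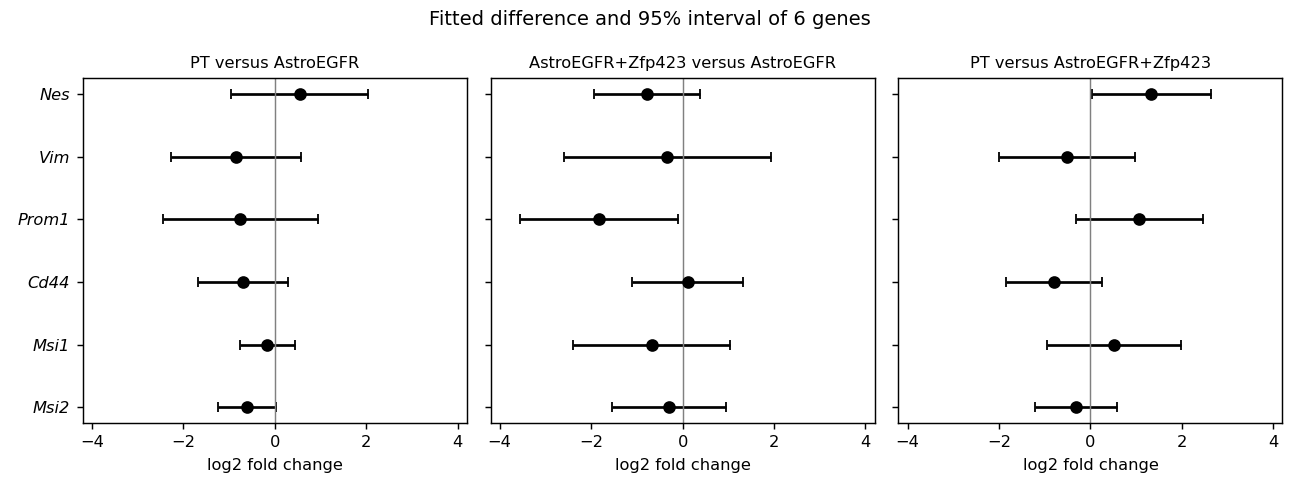
Fitted log2 fold change on log2(FPKM + 1) of the 6 tested genes in the 3 comparisons, with 95% intervals of limma as bars. Every interval for PT against AstroEGFR spans 0, and of the other 12 only *Prom1* (AstroEGFR_Zfp423 against AstroEGFR) and *Nes* (PT against AstroEGFR_Zfp423) do not, both without passing the adjusted threshold.

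Set beside the AstroEGFR library of the same batch, *Vim*, *Cd44* and *Msi2* were lower in all 4 PT libraries. These are 3 of 6 tested genes, where 18.2% of all tested features were lower in every pair. For *Vim* the ratio of FPKM was 0.730, 0.243, 0.662 and 0.645 in PT1 to PT4, lowest in PT2. For *Cd44* it was 0.594, 0.443, 0.978 and 0.434, and for *Msi2* 0.649, 0.404, 0.990 and 0.612. In PT3 the latter pair of genes thus barely differed from AstroEGFR_3. PT2, the lowest of the PT libraries for all 3 genes, also had the largest share of small RNA and histone features in its group, at 34.4%, and the lowest fibroblast sum, at 10.1 FPKM. AstroEGFR_2 of the same batch had a share of 29.7%. Scaled without those features, *Vim*, *Cd44* and *Msi2* were still lower in all 4 PT libraries. The part of the fibroblast sum, and of that share beyond scaling, was not tested. In the fit with the batch as a block, the unadjusted p was 0.0422 for *Vim*, 0.0349 for *Cd44* and 0.0449 for *Msi2*, as for 25.4% of tested features, and the adjusted p was 0.181, 0.165 and 0.187 by limma. *Nes* was higher than in its batch in PT1, PT3 and PT4, at 2.14, 1.54 and 1.33 times, and lower in PT2, at 0.647 times. *Prom1* was lower in PT1, PT2 and PT4, at 0.257, 0.122 and 0.336 times, and higher in PT3, at 4.86 times.

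The ratio of the filament genes within a library was lowest in PT. *Vim* exceeded *Nes* by 15.5, 16.1 and 30.9 times in AstroEGFR, by 5.28, 6.04, 13.3 and 7.53 times in PT1 to PT4, and by 22.2, 26.8 and 33.7 times in AstroEGFR_Zfp423. A ratio within a library does not depend on its scaling. The PT values lay below all the others, and the ratio was chosen with the values of both genes known, so it is given as a description. The fibroblast sum was lower in every PT library than in any AstroEGFR library. It was 88.3 and 92.2 FPKM in PT1 and PT4 against 449.2 in AstroEGFR_1, and 10.1 in PT2 against 592.1 in AstroEGFR_2. In PT3, where *Cd44* and *Msi2* barely differed from AstroEGFR_3, it was 435.5 FPKM against 5248. Fibroblasts also express *Vim* and *Cd44*, and the part of that sum in the lower *Vim*, *Cd44* and *Msi2* was not tested.

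**Figure D3:**
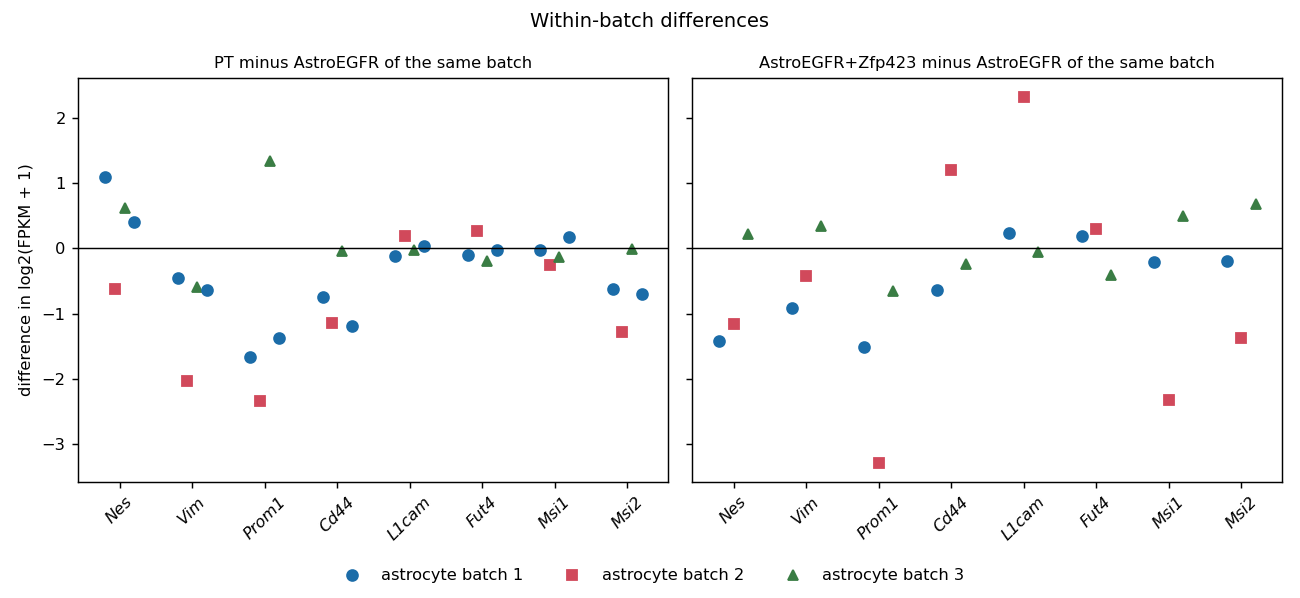
Difference in log2(FPKM + 1) between each PT library (left) or AstroEGFR_Zfp423 library (right) and the AstroEGFR library of its batch, for the 8 genes. *Vim*, *Cd44* and *Msi2* are below 0 in all 4 PT points, and *Prom1* is below 0 in all 3 AstroEGFR_Zfp423 points.

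AstroEGFR_Zfp423 and AstroEGFR were compared, batch by batch, to ask whether the markers change when *Zfp423* is overexpressed. None of the 6 tested genes was called by limma with Benjamini-Hochberg adjustment, and neither was any other feature (0% of 12366, with 913 or 7.38% under an unadjusted p of 0.05). *Prom1* was lower in all 3 batches, as were 15.2% of tested features, at 0.297, 0.0175 and 0.0917 times AstroEGFR. Its fold change was -1.82 ± 0.63 (log2, SE, 3 pairs), with an unadjusted p of 0.0429 and an adjusted p of 0.628 by limma. In batch 3 both libraries were under 1 FPKM. In batches 1 and 2 the lower *Prom1* stood beside the microglial sums of 893.8 and 480.2 FPKM, and fibroblast sums of 4601 and 6323 FPKM, against 449.2 and 592.1 in the AstroEGFR libraries of these batches. In batch 3, where *Prom1* was also lower, the fibroblast sum was 267 FPKM against 5248. The astrocyte sum was lower in all 3 batches, at 186, 57.2 and 871.2 FPKM against 514.9, 422.0 and 1032 in AstroEGFR, and 7 of 7 tested astrocyte genes had a lower mean (median fold change -1.81). The part of these sums was not tested. The fold change was -1.08 without batch 2, -2.41 without batch 3 and -3.07 with a pseudocount of 0.1. The exact sign-flip test over 3 pairs gave p = 0.25, the smallest it allows.

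The other 5 tested genes went in both directions between batches, while the small RNA and histone share was higher than in AstroEGFR in all 3. Scaled without those features, their fold changes were -0.84 (*Nes*), -0.39 (*Vim*), 0.053 (*Cd44*), -0.71 (*Msi1*) and -0.35 (*Msi2*). The part of that share beyond scaling was not tested. *Nes* had a fold change of -0.78 ± 0.43 with an adjusted p of 0.662 by limma, at 0.372, 0.445 and 1.17 times its batch. *Vim* had one of -0.33 ± 0.83 with an adjusted p of 0.922 by limma, at 0.532, 0.743 and 1.27 times. Without single batches *Nes* ranged from -1.29 to -0.47 and *Vim* from -0.67 to -0.041, both lowest without batch 3. Both filament genes were thus lower in batches 1 and 2, where the microglial and the fibroblast sums were higher than in AstroEGFR, and higher in batch 3, where both sums were lower, and the part of these sums was not tested. *Msi1* was at 0.853, 0.136 and 1.45 times its batch and *Msi2* at 0.878, 0.379 and 1.61 times, with fold changes of -0.67 ± 0.63 and -0.29 ± 0.46. Leaving out batch 2, whose *Zfp423* library had the astrocyte sum of 57.2 FPKM, turned them to 0.15 and 0.25. *Cd44* was at 0.641, 2.33 and 0.843 times, and its fold change of 0.11 ± 0.45 turned to -0.44 without that batch. AstroEGFR_3_Zfp423, with the highest *Zfp423* and no microglial sum above that of AstroEGFR, had higher *Nes*, *Vim*, *Msi1* and *Msi2* and lower *Prom1* and *Cd44* than AstroEGFR_3. It is a single pair with no replicate check.

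PT and AstroEGFR_Zfp423 were set beside each other as the other pair of derived states. Of 12412 features tested, 0.0161% were called by limma, and none of the 6 markers was. *Nes* was the 1 marker with an unadjusted p under 0.05, as 16% of features had. *Nes* was higher in all PT libraries than in any AstroEGFR_Zfp423 library, as 7.23% of features were, with means of 354.1 ± 252.1 and 114.9 ± 7.94 FPKM (SD, n = 4 and 3). Its fold change was 1.33 ± 0.56 (log2, SE), with an unadjusted p of 0.0465 and an adjusted p of 0.306 by limma. The adjusted p lay between 0.214 and 0.608 over the alternatives run. Other values differed between the same groups. The share of small RNA and histone features was 35.8 to 54.8% in AstroEGFR_Zfp423 and 0.801 to 34.4% in PT. Of the marker lists, microglia had 8 of 8 tested genes with a lower mean in PT (median fold change -3.47) and fibroblasts 7 of 8 (median -3.47). The microglial genes other than *Cd68* were under 1 FPKM in every PT library. They passed the 1 FPKM filter through AstroEGFR_Zfp423, so their direction followed from the filter. The oligodendrocyte lineage had 5 of 6 tested genes with a higher mean in PT (median 1.77), and astrocytes 6 of 7 (median 1.27). Scaled without small RNA and histone features, the fold change of *Nes* was 1.36. The part of the marker lists, and of that share beyond scaling, in the difference of *Nes* was not tested. *Prom1* had a fold change of 1.07 ± 0.59, which was 0.69 to 1.74 without single libraries and 2.34 with a pseudocount of 0.1, and an adjusted p of 0.418 by limma, with 3 of 4 PT libraries above the AstroEGFR_Zfp423 library of their batch. *Cd44* had one of -0.80 ± 0.45 and an adjusted p of 0.426, and ranged from -1.06 to -0.48 without single libraries, with -0.18 when AstroEGFR_2_Zfp423 and PT2 were both left out. *Vim*, *Msi1* and *Msi2* had adjusted p-values of 0.738, 0.732 and 0.731. This comparison shares its PT libraries with the first and its AstroEGFR_Zfp423 libraries with the second.

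**Figure D4:**
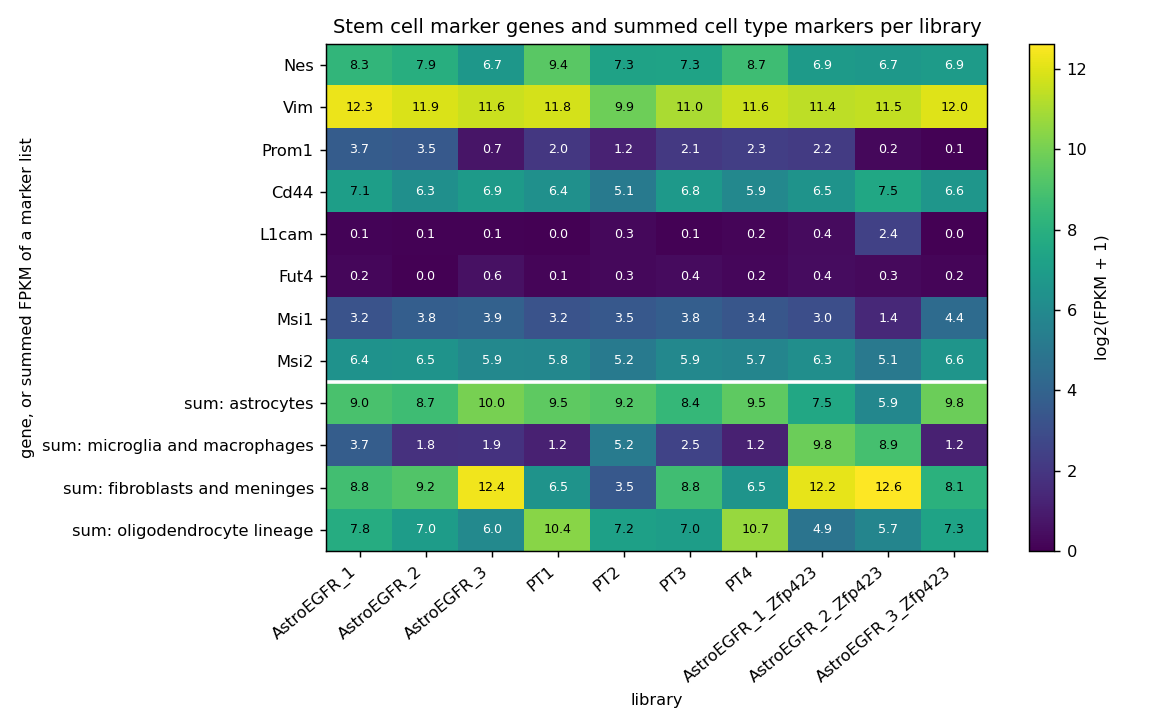
log2(FPKM + 1) of the 8 genes (above the white line) and of the summed FPKM of 4 cell type marker lists (below it) in each library. AstroEGFR_1_Zfp423 and AstroEGFR_2_Zfp423 carry the high microglial sums, and AstroEGFR_2_Zfp423 also the lowest astrocyte sum, the lowest *Msi1* and the highest *L1cam* and *Cd44*.

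The genes differed in how far they varied inside a group. The standard deviation of log2(FPKM + 1) of *Prom1* in AstroEGFR was 1.67, above that of 96.5% of the 12119 features that averaged 1 FPKM or more. *Nes* was above 83.3% of features in AstroEGFR and 85.5% in PT, but above 6.55% in AstroEGFR_Zfp423. *Msi1* had a standard deviation of 0.23 in PT, above 15.7% of features, and of 1.48 in AstroEGFR_Zfp423, above 91.5%. *Msi2* stayed below the median feature in AstroEGFR and PT, at 36.9% and 27.0%, and above it in AstroEGFR_Zfp423, at 76.6%.

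Pearson correlations of log2(FPKM + 1) across the 10 libraries describe which features moved with each gene. The libraries share batches and small-RNA content, so no p is given. Of 9698 features that averaged 5 FPKM or more, *Nes* was closest to *4930572J05Rik* (r = 0.964), *Wbp7* (0.951) and *Snrnp35* (0.951), *Vim* to *Eml1* (0.944), *Sipa1l1* (0.940) and *Elof1* (0.939), and *Cd44* to *Mgat2* (0.964), *Naaa* (0.922) and *Acot10* (0.909). *Prom1* had no feature as close, with *Leng8* at 0.877, *Mettl7a1* at 0.858 and *Mest* at 0.851. *Msi2* was closest to *Cadm1* (0.969), *Sucnr1* (0.956) and *Otud1* (0.946), and over the 7 AstroEGFR and PT libraries its r with *Cadm1* was 0.985. For *Msi1* the closest were *Clcn2* (0.922), *Megf10* (0.919) and *Npas3* (0.916), which without the AstroEGFR_Zfp423 libraries had r of 0.750, 0.614 and -0.167. *L1cam* was closest to *Mmp12* (0.995), a macrophage elastase, *Snord53* (0.988) and *Il1rl1* (0.980). It was above 1 FPKM only in AstroEGFR_2_Zfp423, at 4.36, so these r mostly follow 1 library. Over the 7 AstroEGFR and PT libraries, where *L1cam* was at most 0.220 FPKM, its r was 0.852 with *Mmp12* and -0.237 with *Il1rl1*. *Snord53* had no r there. *Fut4* was closest to *Creb3l1* (0.936), *Cpxm1* (0.926) and *Pld3* (0.885). Among the markers themselves, the r furthest from 0 over 10 libraries was -0.891 for *L1cam* and *Msi1*, which was -0.0691 over the 7 AstroEGFR and PT libraries. *Vim* and *Msi2* had an r of 0.671 over 10 libraries and 0.851 over the 7, and *Vim* and *Cd44* 0.610 and 0.727. *Nes* and *Vim* were at 0.308 and 0.460, and *Nes* and *Msi1* at 0.0495 and -0.826.

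Partners of the markers were examined in PT and AstroEGFR by lists of related genes. Of the L1 family and its contactin, integrin and ankyrin partners, 9 of 10 tested genes had a higher mean in PT and 1 was called, with a median fold change of 1.04 against 0.03 over all features. Of these, *Chl1*, *Cntn1* and *Nfasc* were under 1 FPKM in every AstroEGFR library. They passed the 1 FPKM filter through PT, so their direction followed from the filter. Beside that list, 5 of 5 tested oligodendrocyte lineage genes had a higher mean in PT (median 1.72). The contactin gene *Cntn1* and the L1 family gene *Nfasc* were highest in PT4, at 122.1 and 29.0 FPKM, where the oligodendrocyte factor *Sox10* was at 117.3. *Chl1*, *Ank2* and *Nrcam* of the same list were highest in PT2, at 96.8, 66.1 and 59.8 FPKM, where *Sox10* was at 0.103. The part of the oligodendrocyte lineage was not tested. The called gene was *Nrcam*, an adhesion molecule of the L1 family, at 0.451, 0.471 and 2.16 FPKM in AstroEGFR and 21.9, 59.8, 20.5 and 20.8 in PT. Its fold change was 3.91 ± 0.47 (log2, SE, n = 4 and 3) with an adjusted p of 0.0134 by limma, while *L1cam* itself stayed under 1 FPKM in all 7 libraries. In AstroEGFR_Zfp423 *Nrcam* was at 0.194, 0.378 and 36.4 FPKM, high in the library with the highest *Zfp423*. With the batch as a block, *Ank2*, an ankyrin that anchors L1 proteins, was also called higher in PT with an adjusted p of 0.0454 by limma.

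Of the other lists of partners and stem cell genes, none held a called gene without the block. On the fibroblast marker list 9 of 9 tested genes had a lower mean in PT, and *Pdgfrb*, a receptor of fibroblasts and pericytes, was called with a fold change of -4.14 and an adjusted p of 0.0200 by limma. Of the CD44 list 4 of 11 tested genes had a higher mean in PT and 7 a lower one, with a median of -0.32, and *Vcan*, a hyaluronan-binding proteoglycan, was called with the block (adjusted p = 0.0225 by limma) at 36.7 to 76.1 FPKM in PT and 10.3 to 23.6 in AstroEGFR. The fucosylation list had 5 of 10 genes higher and a median of -0.011, and *Fut8*, the core fucosyltransferase, was called with the block (adjusted p = 0.0488 by limma) at 44.7 to 92.7 FPKM in PT and 23.0 to 32.6 in AstroEGFR. Of 24 tested genes on a list of other neural and glioma stem cell genes, 10 had a higher mean and 14 a lower one with a median of -0.23. *Id3*, an inhibitor of basic helix-loop-helix factors, was called with the block (adjusted p = 0.0261 by limma) at 51.8 to 200.6 FPKM in PT and 309.0 to 713.9 in AstroEGFR. The lists of filament partners (3 of 8 higher, median -0.84), prominin-1 partners (2 of 4, median 0.080) and Musashi targets (4 of 8, median 0.021) held no called gene in either fit. In the other comparisons no gene of these 7 lists was called.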

How the data were processed

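RNA sequencing values of 10 libraries were used. The authors deposited 1 matrix of FPKM values, 1 row per gene symbol, made per the labels with TopHat 1.3 and Cuffnorm on mm9. The labels name a TruSeq RNA kit and a lentiviral *Zfp423* vector, the paper ribosomal RNA removal, stranded libraries and a retroviral vector. Read counts cannot be recovered from FPKM, no count model was fitted, and the depth behind each value is unknown. Groups were taken from the labels. PT4 was placed in batch 1 from a figure of the paper, as the labels do not give its batch.

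Features that averaged 1 FPKM or more in the libraries compared were tested on log2(FPKM + 1), which understates the change of low genes, with limma 3.58.1 in R 4.3.3 (empirical Bayes with a trend, Benjamini-Hochberg adjustment over all tested features, threshold 0.05), using the libraries of the groups compared. A gene that averaged under 1 FPKM in 1 group passed through the other, so its direction in the list counts followed from the filter. AstroEGFR_Zfp423 and AstroEGFR were blocked by batch. PT and AstroEGFR were not, as the batch block was an alternative. Deviations from the group means correlated at 0.346 to 0.499 in the 4 PT and AstroEGFR pairs of a batch and at -0.262 to 0.241 in the pairs with AstroEGFR_Zfp423, whose pairing comes from the shared batch in the labels. Each library is 1 culture, so p-values measure the spread between these cultures, and PT1 and PT4 share a batch. The sign-flip test was run in R 4.3.3, and the figures were made in Python 3.11.15 with matplotlib 3.10.9. Alternatives were another pseudocount, filter, scaling, block or trend, and leaving out libraries.

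The genes and lists were chosen with earlier results of these data known. All 8 genes were named, with the genes of the lists past the threshold (at most 3 per list and comparison) and the 3 features most correlated with each gene. Genes called only with the block were named after their values were seen.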

Additional observations from a re-analysis of the deposited data

Results flagged for a closer look

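For PT and for AstroEGFR_Zfp423 against AstroEGFR, 6 cases were found in which a gene moved in opposite directions in 2 astrocyte batches. Each move was at least 0.5 on the log2(FPKM + 1) scale, in single libraries or, for PT in batch 1, in both. PT against AstroEGFR_Zfp423 was not counted, and there *Msi1* differed by 2.06 in batch 2 and by -0.63 in batch 3. The differences between batches were not tested, since a batch mostly holds 1 library of a group. For PT against AstroEGFR, *Nes* differed by -1.24 between batch 2 (-0.63) and batch 3 (0.62). *Prom1* was lower in batch 1 (-1.67 and -1.37) and batch 2 (-2.35) and higher in batch 3 (1.34), so that batch 1 less batch 3 was -2.86 and batch 2 less batch 3 was -3.69. AstroEGFR_3, the reference of batch 3, was itself the AstroEGFR library with *Prom1* at 0.661 FPKM.

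For AstroEGFR_Zfp423 against AstroEGFR, *Cd44* fell by 0.64 in batch 1 and was higher by 1.21 in batch 2, a difference of -1.85. *Msi1* differed by -2.83 between batch 2 (-2.32) and batch 3 (0.50), and *Msi2* by -2.05 between batch 2 (-1.37) and batch 3 (0.68). AstroEGFR_2_Zfp423 enters all 3 of these values, and it had a microglial sum of 480.2 FPKM and an astrocyte sum of 57.2 FPKM. The part of either in the differences was not tested.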

How the results depend on the processing

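None of the 8 genes was called under the alternatives in which it was tested. *L1cam* and *Fut4* were tested with no filter, *L1cam* also without batch 1 or 3 of AstroEGFR_Zfp423 against AstroEGFR, and *Prom1* not with a minimum mean of 5 FPKM. Counting untested values too, 135 of 141, 80 of 85 and 138 of 141 alternative values kept their sign for PT against AstroEGFR, AstroEGFR_Zfp423 against AstroEGFR and PT against AstroEGFR_Zfp423. The number of all features called was less stable, and the cause was not tested. For PT against AstroEGFR it was 152, and 82 with all 10 libraries in 1 fit, 475 with the replicate block, 31 with the block over the labels' numbers without PT4, 59 with PT1 and PT4 averaged, 8 without AstroEGFR_3 and PT3 (chosen after seeing the data) and 7 to 123 without single libraries, the lowest without AstroEGFR_1. For AstroEGFR_Zfp423 against AstroEGFR it was 0, and 2 with no replicate block and 0 to 51 without single batches, the highest without batch 2. For PT against AstroEGFR_Zfp423 it was 2, and 0 with a pseudocount of 0.1, with no filter, with the block over the labels' numbers or with PT1 and PT4 averaged, 1 with a minimum mean of 5 FPKM, 28 with all libraries, 20 with the replicate block, 107 without AstroEGFR_2_Zfp423 and PT2 (chosen after seeing the data) and 0 to 629 without single libraries, the highest without AstroEGFR_3_Zfp423. The replicate block changed the call of no marker. Signs turned as follows. For PT against AstroEGFR, *Fut4* was at -0.019 and became 0.12 with a pseudocount of 0.1, 0.0057 with PT1 and PT4 averaged, 0.085 without AstroEGFR_3 and PT3, and -0.15 to 0.13 without single libraries, where *L1cam* ranged from -0.019 to 0.073. For AstroEGFR_Zfp423 against AstroEGFR, the ranges without single batches were -0.10 to 0.25 for *Fut4*, -0.44 to 0.48 for *Cd44*, -1.26 to 0.15 for *Msi1* and -0.78 to 0.25 for *Msi2*. For PT against AstroEGFR_Zfp423 they were -0.12 to 0.011 for *Fut4* and -0.25 to 1.24 for *Msi1*, and *Msi1* was at -0.26 without AstroEGFR_2_Zfp423 and PT2. The depth behind each FPKM is unknown, so no floor could be set for *L1cam* and *Fut4*.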
